A study of Mus musculus with 6 samples.

Results

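The genes described here encode the proteins of the cytosolic ribosome and were followed in the brains of mice fed a liver-derived diet. They were chosen by name: protein-coding features whose Ensembl identifier carries, in GENCODE release M21, an Rpl or Rps symbol made of a number with at most a short ending, together with Rplp0, Rplp1, Rplp2 and Rpsa, and without the Rps6k kinases and the named pseudogenes. This gave 82 genes among 60354 features, of which 50 belong to the large and 32 to the small subunit. The diet test covered 78 of them, 47 of the large and 31 of the small subunit, because the other 4 had too few counts. A further 6 features fit the name but are annotated as pseudogenes and were left out, and Fau, Rack1 and Rpl36al, which also encode ribosomal or ribosome-bound proteins, do not match the name and are given separately.

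RNA came from the whole brain of male C57BL/6NCrSlc mice that had been on their diet for 16 weeks and had then gone through behavioral tests. The 3 PLDP mice, numbered 17, 22 and 26, ate a modified AIN-93M diet with 20% protease-treated porcine liver decomposition product (PLDP), an enzymatic digest of pig liver. The 3 control mice, numbered 2, 5 and 10, ate a modified AIN-93M diet whose calories were matched to it. All 6 mice were of the same strain, the PLDP diet was not given during the tests, and polyadenylated RNA was sequenced as paired reads from a stranded kit. Total counts per mouse ran from 18797061 in PLDP mouse 26 to 23938729 in PLDP mouse 22.

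Markers of brain cells were present in every mouse. Summed levels of 6 neuron markers were 4968 to 5100.0 counts per 1000000 counts (CPM) in control mice and 5005 to 5157 CPM in PLDP mice. All 5 markers of hindbrain and spinal cord (Slc6a5, Glra1, Hoxb3, Hoxb5 and Hoxa5) were lower in PLDP mice by the diet test used below, with summed levels of 140.4 to 152 CPM in control mice and 74.6 to 109.6 CPM in PLDP mice, and none was at 0. In a bulk sample, fewer cells of a kind and less RNA per cell cannot be told apart.

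The cytosolic ribosome joins a small subunit, which reads the messenger RNA, and a large subunit, which forms the peptide bond. Each subunit carries a set of proteins on a core of ribosomal RNA, and most of these proteins are needed in equal numbers. Their messenger RNAs typically begin with a cytosine followed by a run of pyrimidines at the capped end, the terminal oligopyrimidine tract, through which the mTORC1 kinase and the RNA-binding protein Larp1 control their translation as a group.

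Pyrimidine runs were counted in the sequences around the annotated start sites, wherever they lay in the window, so that a run counted is not necessarily at the capped end. RefSeq promoter sequences (GRCm38.p6) matched 62 of the 82 genes. A run of at least 8 pyrimidines within 30 bases on either side of the start was found in 34 of these (54.8%), against 25.8% of all 27025 genes with an entry. The letters CTTTCC on the gene's strand were found in the same window in 19.4% of the matched genes and 3.40% of all genes, and some of these matches lie inside the pyrimidine runs. The letters CCGGAAGT, on either strand of the 300 bases, were found in 19.4% of the matched genes and 4.31% of all genes.

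Windows from 30 bases before to 20 bases from the start are shown for 3 of the genes with the smallest p-values in the diet comparison, for Rpl41 and for Rps28, whose estimates lay on the other side of 0. Capitals mark the longest pyrimidine run in the window.
Rps7 (chr12:28635934-28635983, minus strand): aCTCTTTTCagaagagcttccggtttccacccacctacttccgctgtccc
Rpl22l1 (chr3:28805478-28805527, plus strand): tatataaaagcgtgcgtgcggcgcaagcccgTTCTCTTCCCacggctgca
Rpl18 (chr7:45718041-45718090, plus strand): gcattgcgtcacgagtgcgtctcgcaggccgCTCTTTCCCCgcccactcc
Rpl41 (chr10:128549149-128549198, minus strand): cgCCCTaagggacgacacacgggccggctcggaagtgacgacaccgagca
Rps28 (chr17:33824543-33824592, minus strand): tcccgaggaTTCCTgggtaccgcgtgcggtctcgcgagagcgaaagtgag
In Rpl22l1 and Rpl18 the run begins at the base after the annotated start and is 10 bases long in both. Rps7 has its run of 8 bases upstream, and the longest runs in the windows of Rpl41 and Rps28 have 4 and 5 bases.

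Levels per length are given as mean CPM over the 6 mice per kilobase of one principal transcript, and depend on the transcript chosen. In the large subunit they had a median of 199 CPM per kilobase over the 47 tested genes, with an interquartile range of 131 to 279. In the small subunit the median was 225 CPM per kilobase over 31 genes, with an interquartile range of 172 to 293. Rplp1, an acidic protein of the ribosomal stalk, had the highest level per length of the large subunit at 802 CPM per kilobase, followed by Rpl41, a very short basic peptide, at 569 and Rpl31 at 394. In the small subunit Rps15 led at 608 CPM per kilobase, before Rps29 at 589.6 and Rps21 at 468.

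A few genes lay far below the others. Rpl24 was counted at 0.499 to 1.18 CPM, Rpl13a at 3.86 to 4.79 CPM, and Rps10 at 5 to 17 reads per mouse. All encode core ribosomal proteins, and in all of them other annotated genes run along the same strand: 47.0% of the exon bases of Rpl24 are also exon of Gm28037, 29.4% of those of Rpl13a are exon of Gm45713, and 20.6% of those of Rps10 are exon of RPS10-NUDT3. In addition, 80.1% of the 100-base stretches of the Rpl24 transcript and 89.5% of those of Rps10 occur in transcripts of other genes. Their part in the low counts was not tested, and these rows are uncertain as measures of expression. Rps20 and Rps16 came out among the lowest of the small subunit per length, at 26.8 and 138 CPM per kilobase. For Rps20 this rests on a principal transcript of 3706 bases, and per kilobase of coding sequence it stood at 276 CPM. The low place of Rps16 likewise depends on the transcript chosen, which has 1109 bases for a coding sequence of 441 bases.

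**Figure D1:**
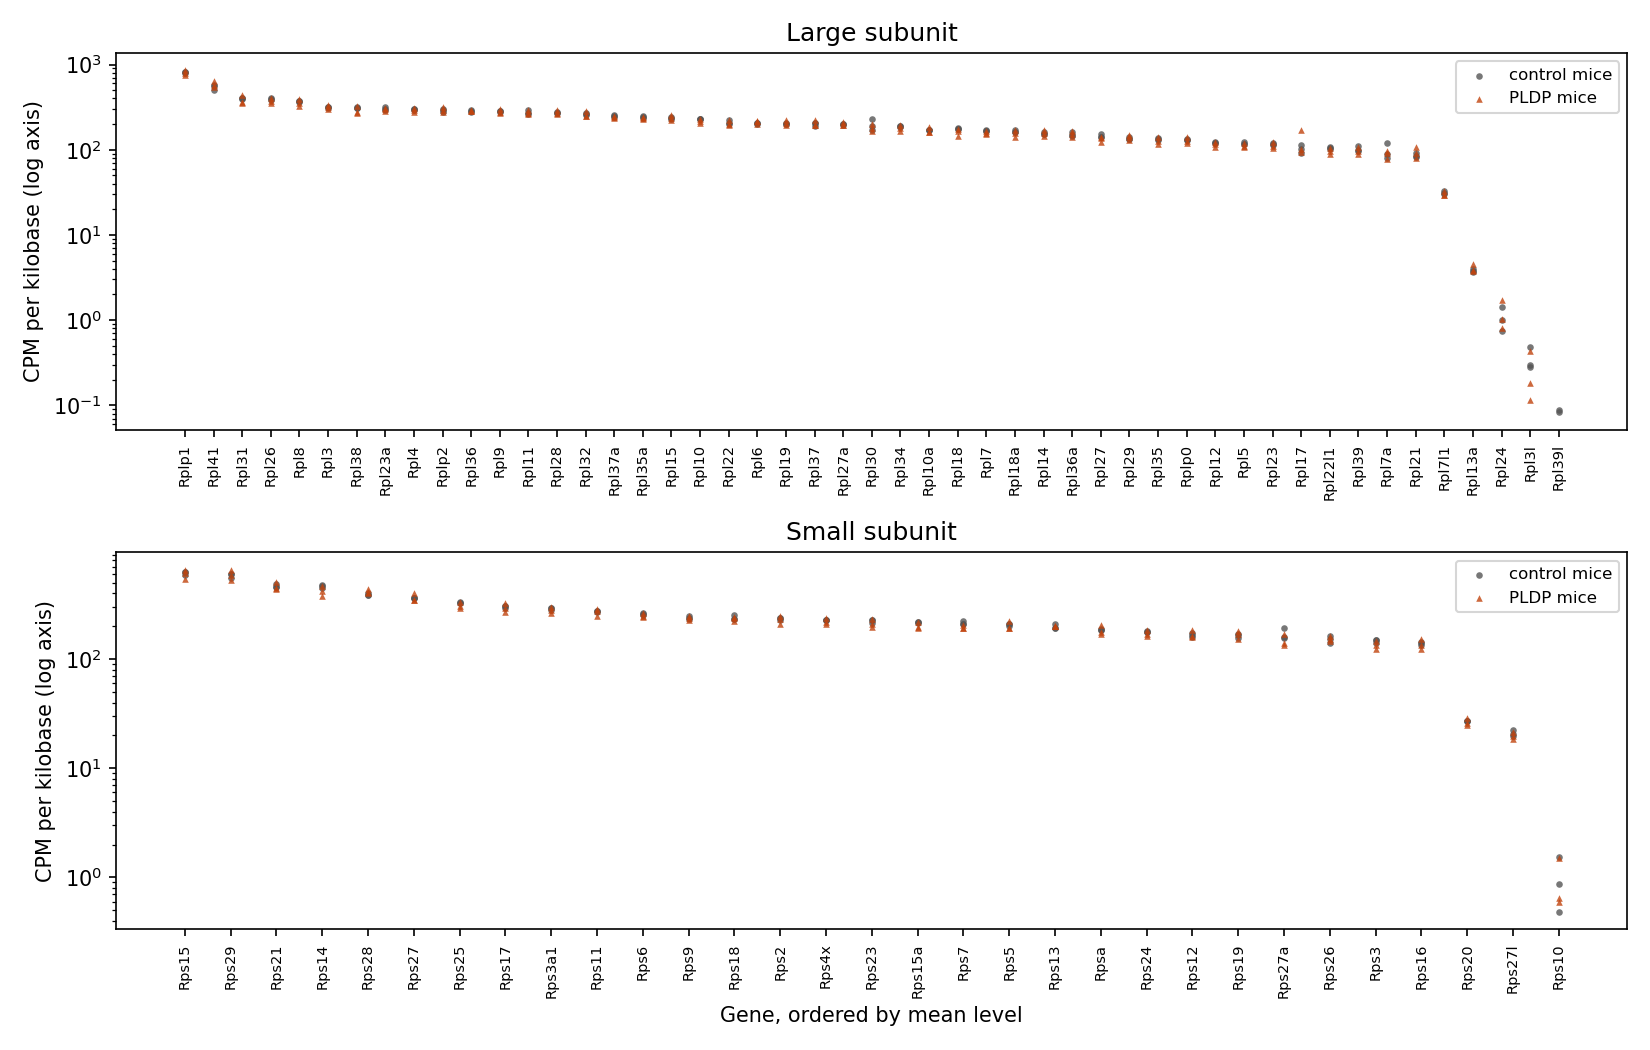
Level of single genes per kilobase of their principal transcripts, in CPM per kilobase on a log axis, for the large subunit (top) and the small subunit (bottom), with genes ordered by their mean over 6 mice; dots are control mice, triangles are PLDP mice, and libraries with 0 counts are not drawn. Most genes lie in 1 band with the 6 mice close together, and Rpl7l1, Rpl13a, Rpl24, Rpl3l and Rpl39l of the large and Rps20, Rps27l and Rps10 of the small subunit lie below.

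The first question was whether single ribosomal protein genes differed between the diets. By edgeR's quasi-likelihood test, 5 of the 78 tested genes had an unadjusted p below 0.05, all lower in PLDP mice: Rps7, Rps27a and Rps14 of the small and Rpl22l1 and Rpl18 of the large subunit. None was higher. Over all 18580 features tested, 8.6% passed this threshold, 4.91% higher and 3.69% lower, so that the share of ribosomal protein genes called in either direction, 6.41%, was near the background. After Benjamini-Hochberg adjustment over all features none of the 78 passed, against 0.0323% of all features, and their smallest adjusted p was 0.457. The estimates were small: 74 of 78 lay within a factor of 1.1 in either direction, and for 73 of 78 the 95% interval stayed between -0.3 and 0.3 on the log2 scale.

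Rps7, a small subunit protein (chr12:28630854-28635953, minus strand, GRCm38), had 171, 182 and 172 CPM in control mice 2, 5 and 10 and 168, 159 and 158 CPM in PLDP mice 17, 22 and 26. All 3 PLDP mice lay below all 3 control mice, by a narrow gap (log2 fold change -0.11, SE 0.04, unadjusted p = 0.0183, adjusted p = 0.457). It was 1 of 2 genes in which the PLDP mice all lay below the control mice, against 6.9% of all features; the other was Rpl27, a large subunit protein, with 86.4, 92.9 and 87.2 CPM in control mice 2, 5 and 10 and 86.1, 76.2 and 84.7 CPM in PLDP mice 17, 22 and 26 (log2 fold change -0.11, SE 0.05, unadjusted p = 0.0528, adjusted p = 0.583). Rps28 was the only gene with all PLDP mice above all control mice, against 7.29% of all features, with 106, 106 and 109 CPM in control mice 2, 5 and 10 and 119, 111 and 110.3 CPM in PLDP mice 17, 22 and 26 (log2 fold change 0.08, SE 0.05, unadjusted p = 0.0829, adjusted p = 0.633). The difference of Rps7 lost its call without PLDP mouse 26 (unadjusted p = 0.078) and without control mouse 5 (unadjusted p = 0.11).

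In the other 4 called genes the groups overlapped, because PLDP mouse 17 lay at the level of the control mice. Rps14, which lies in the platform of the small subunit, had 283, 278 and 267 CPM in control mice 2, 5 and 10 and 279.7, 225 and 249 CPM in PLDP mice 17, 22 and 26 (log2 fold change -0.13, SE 0.06, unadjusted p = 0.0339, adjusted p = 0.531). Rpl18, a large subunit protein (chr7:45715457-45720836, plus strand), had 123, 117 and 119 CPM in control mice 2, 5 and 10 and 118, 98.3 and 113 CPM in PLDP mice 17, 22 and 26 (log2 fold change -0.12, SE 0.06, unadjusted p = 0.0478, adjusted p = 0.572). In both, PLDP mouse 22 was the lowest of all mice. Without it the log2 fold change was -0.06 for Rps14 (unadjusted p = 0.238) and -0.05 for Rpl18 (unadjusted p = 0.340). Rpl22l1 (chr3:28805436-28807424, plus strand), the paralog of Rpl22, had 58.4, 60.2 and 57.0 CPM in control mice 2, 5 and 10 and 57.4, 49.6 and 52.6 CPM in PLDP mice 17, 22 and 26 (log2 fold change -0.14, SE 0.06, unadjusted p = 0.0291, adjusted p = 0.515). In Rps14, Rpl18 and Rpl22l1 alike, PLDP mice 22 and 26 lay below all control mice. Leaving out a single mouse ended the call of each of these genes in 4 of 6 cases: for Rps14 and Rpl22l1 without PLDP mouse 22 or 26 or control mouse 2 or 5, with unadjusted p of 0.0678 to 0.238 and 0.0597 to 0.153, and for Rpl18 without PLDP mouse 22 or any 1 control mouse (0.0584 to 0.340).

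Rps27a (chr11:29545846-29548109, minus strand) encodes a fusion of ubiquitin and a small subunit protein and had the largest estimate among the called genes. Its values were 123, 99.5 and 102 CPM in control mice 2, 5 and 10 and 107, 90.3 and 85.1 CPM in PLDP mice 17, 22 and 26 (log2 fold change -0.20, SE 0.08, unadjusted p = 0.0235, adjusted p = 0.492). The call was lost without PLDP mouse 22 (unadjusted p = 0.0775) or 26 (unadjusted p = 0.117). Control mouse 2 stood above the other mice, and without it the difference was -0.10 on the log2 scale (unadjusted p = 0.211). The counts of this gene are described with those of its pseudogene below.

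**Figure D2:**
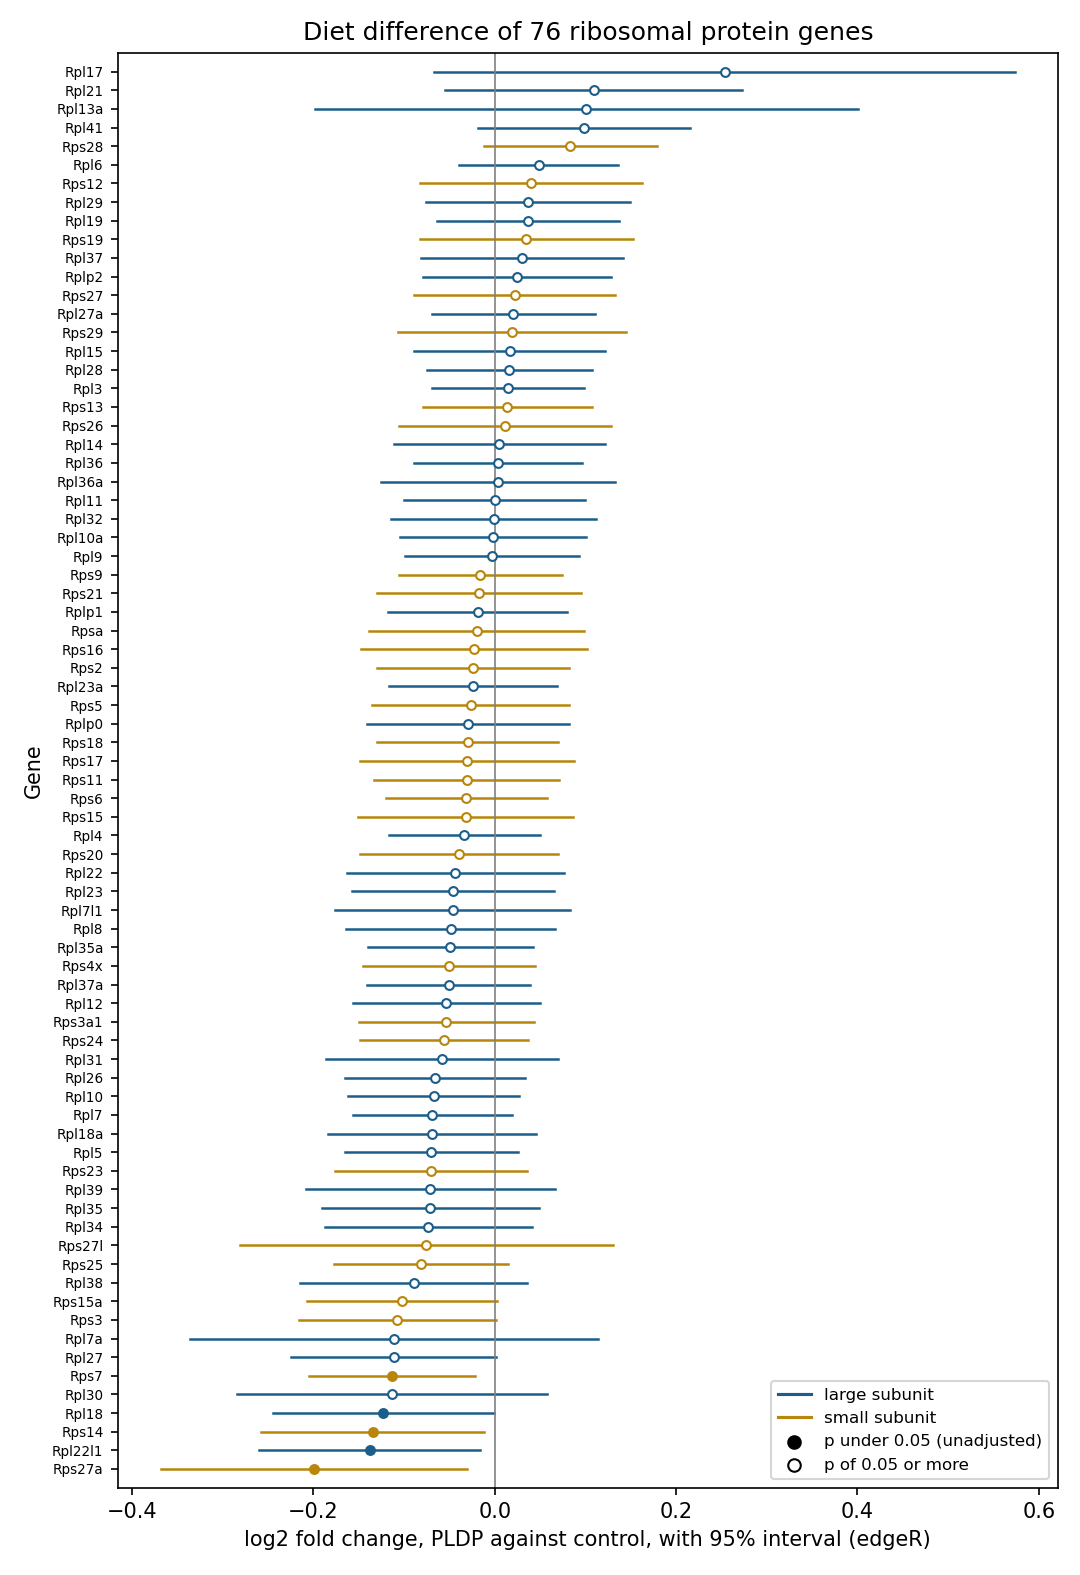
Log2 fold change of PLDP against control mice for 76 of the tested genes, with 95% intervals from edgeR, ordered by size, blue for the large and yellow for the small subunit; filled points have an unadjusted p below 0.05 and Rpl24, whose interval was -0.62 to 0.91, is left out. The 5 filled points lie on the lower side, from Rps27a at -0.20 to Rps7 at -0.11, and most intervals include 0.

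On the higher side the largest estimates were those of Rpl17, Rpl24, Rpl21, Rpl13a and Rpl41, none of which passed the test, and Rpl24 and Rpl13a are among the uncertain rows named above. Rpl41 had 253, 245 and 222 CPM in control mice 2, 5 and 10 and 278, 239 and 254 CPM in PLDP mice 17, 22 and 26 (log2 fold change 0.10, SE 0.06, unadjusted p = 0.0950, adjusted p = 0.644). PLDP mouse 17 was its highest mouse and control mouse 10 its lowest. Rpl8, which lies close to the peptidyl transferase centre, and Rpsa, the laminin receptor precursor that is also a small subunit protein, are examples of abundant genes with no call. Rpl8 had 321, 317 and 311 CPM in control mice 2, 5 and 10 and 338, 277 and 301 CPM in PLDP mice 17, 22 and 26, with a 95% interval of the log2 fold change of -0.16 to 0.07. Rpsa had 295, 299 and 298 CPM in control mice 2, 5 and 10 and 329, 269 and 283 CPM in PLDP mice 17, 22 and 26, with an interval of -0.14 to 0.10. In both genes PLDP mouse 17 was the highest and PLDP mouse 22 the lowest of the 6 mice.

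This order of mice was common among these genes. PLDP mouse 17 had the highest level in 54 of 78 genes (69.2%) and PLDP mouse 22 the lowest in 56 (71.8%), against 21.7% and 16.9% of all features tested. Both held at once in 40 genes, 23 of the large and 17 of the small subunit, which is 51.3% of them against 5.43% of all features. In 46 genes (59.0%, against 7.41% of all features) the 3 control mice lay between PLDP mice 22 and 17. PLDP mouse 22 was highest in none and PLDP mouse 17 lowest in none. Relative to the mean of the control mice on the log2(CPM + 0.5) scale, the median gene stood at -0.01, 0.01 and -0.01 in control mice 2, 5 and 10 and at 0.07, -0.12 and -0.06 in PLDP mice 17, 22 and 26. The PLDP mice thus lay on both sides of the control mice, with 67 of 78 genes above the control mean in PLDP mouse 17, 5 in PLDP mouse 22 and 18 in PLDP mouse 26. The standard deviation over the 3 PLDP mice was larger than that over the 3 control mice in 71 of 78 genes (91.0%), against 57.5% of all features.

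**Figure D3:**
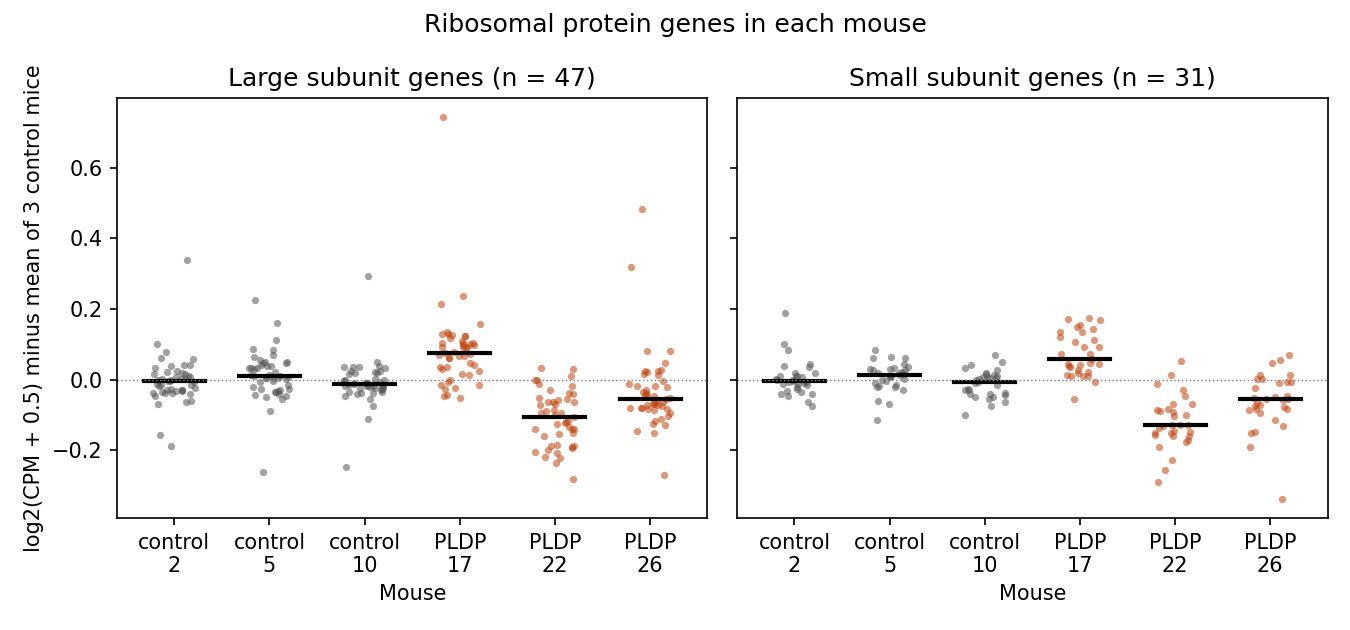
Level of each tested gene in each mouse, as log2(CPM + 0.5) minus the mean of the 3 control mice, for 47 large subunit genes (left) and 31 small subunit genes (right); each point is 1 gene and the black bar is the median. The medians of the control mice stay close to 0, while those of PLDP mouse 17 lie above and those of PLDP mice 22 and 26 below, in both subunits.

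The same order held for the share of all counts. Large subunit genes took 0.751%, 0.758% and 0.752% of the counts in control mice 2, 5 and 10, and 0.799%, 0.700% and 0.730% in PLDP mice 17, 22 and 26. Small subunit genes took 0.557%, 0.561% and 0.556% in the control mice and 0.587%, 0.508% and 0.533% in the PLDP mice. For all 82 genes together the share was 1.31% ± 0.00667 (SD, n = 3) in control mice and 1.29% ± 0.0915 (SD, n = 3) in PLDP mice. The group means differed by less than the spread of the PLDP mice, which was wider than that of the control mice.

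What the diet test called therefore depended on the mouse left out. Without PLDP mouse 17, 37 of 78 genes were lower with an unadjusted p below 0.05 (47.4%, against 5.69% of all features), 20 of the large and 17 of the small subunit, and 4 of them passed after adjustment (5.13% of the 78, against 0.966% of all features, which was itself above the 0.0323% with 6 mice). The 37 included all 5 genes called with 6 mice. Without PLDP mouse 22, by contrast, 4 genes were higher, Rpl17, Rpl21 and Rpl41 among them (4.2% of all features) and 1 was lower (3.98% of all features). No gene was higher without PLDP mouse 17, against 6.86% of all features. Without PLDP mouse 26, 2 genes were lower and 1 was higher, beside 3.33% and 3.91% of all features. Without control mouse 2 there were also 2 lower and 1 higher (2.59% and 3.36% of all features), without control mouse 5 there was 1 lower and none higher (2.72% and 3.77%), and without control mouse 10 there were 6 lower and none higher (3.55% and 4.93%).

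Length moved with this pattern. Ribosomal protein genes are short, with a median summed exon length of 1776 bases among those tested, against 4516 bases for the other protein-coding genes tested. Among the 279 other protein-coding genes with less than 1000 exon bases, the median deviation from the control mean was 0.08, -0.07 and -0.01 in PLDP mice 17, 22 and 26, against 0.07, -0.13 and -0.05 for 11 ribosomal protein genes of that length. For the 6347 others of 5000 bases and over it was -0.03, 0.02 and 0.01, the reverse order, against 0.03, -0.11 and -0.16 for 2 ribosomal protein genes. In the class from 1000 to below 1500 bases the medians were 0.10, -0.16 and -0.05 for 14 ribosomal protein genes and 0.07, -0.06 and -0.03 for 575 others. In the class from 1500 to below 2500 bases, which holds the most ribosomal protein genes (29), their medians were 0.09, -0.10 and -0.06, against 0.04, -0.05 and -0.03 for 1895 other genes. In the class from 2500 to below 5000 bases, the medians were 0.06, -0.10 and -0.06 for 22 ribosomal protein genes and 0.01, -0.02 and -0.01 for 5371 others. Within these last 3 classes the ribosomal protein genes lay farther from the control mean than the other genes of that class in each PLDP mouse. Below 1000 bases this held for PLDP mice 22 and 26, but in PLDP mouse 17 the other genes lay slightly farther. The length classes were chosen after the data had been seen. With an offset for exon length in the edgeR model, 11 genes were lower (14.1%, against 4.55% of all features) and none was higher (against 5.53%), and the median gene stood at -0.04 on the log2 scale.

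**Figure D4:**
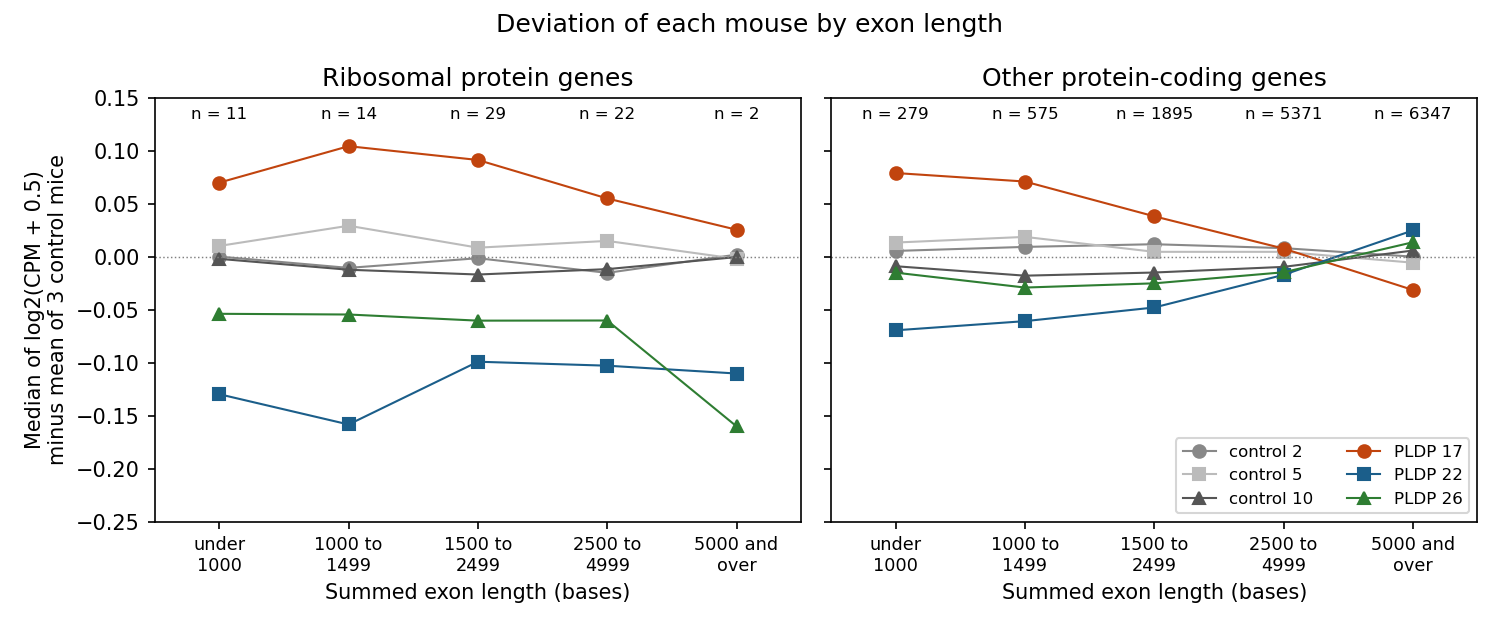
Median deviation of each mouse from the mean of the 3 control mice, on the log2(CPM + 0.5) scale, by summed exon length in bases, for the tested ribosomal protein genes (left) and all other tested protein-coding genes (right), with the number of genes in each class at the top. Short genes of both kinds are higher in PLDP mouse 17 and lower in PLDP mouse 22; the ribosomal class of 5000 bases and over holds 2 genes, and the first 2 classes 11 and 14.

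The marker lists of cell types and regions did not share 1 order among the PLDP mice. Of 13 lists, the summed level was highest in PLDP mouse 17 and lowest in PLDP mouse 22 in 4 (hindbrain and spinal cord, oligodendrocytes, microglia and meninges). The reverse held in 4 (neurons, choroid plexus, neural progenitors and liver, whose list shares Ttr with choroid plexus), and the other 5 had neither order. Among these, 5 endothelial markers, 2 of them higher by the diet test, summed to 191.9, 177.6 and 176.5 CPM in PLDP mice 17, 22 and 26, against 173.4 to 176.1 CPM in control mice. Summed levels of the 5 hindbrain and spinal cord markers were 109.6, 74.6 and 104 CPM in PLDP mice 17, 22 and 26, but, unlike the ribosomal protein genes, they were below all control mice in PLDP mouse 17 as well. Summed levels of 5 oligodendrocyte markers, 2 of which were lower by the diet test and none of which was at 0, were 4919, 4325 and 4351 CPM, against 4666 to 5012 CPM in control mice. In the reverse order, 5 choroid plexus markers, 2 of them lower by the diet test and none at 0, summed to 569, 721 and 666 CPM, all below the 727 to 780.0 CPM of the control mice. The 5 neural progenitor markers, 2 of them higher by the diet test, summed to 64.7, 79.6 and 75.5 CPM, against 66.9 to 72.7 CPM. These orders depend on the measure. By the median deviation from the control mean, meningeal markers stood at -0.04, -0.07 and 0.03 in PLDP mice 17, 22 and 26, with PLDP mouse 26 highest. Endothelial markers stood at 0.23, -0.05 and 0.17, with PLDP mouse 17 highest and PLDP mouse 22 lowest. PLDP mouse 22 also had the most counts of the 6 libraries. The part of these measures in the order of the ribosomal protein genes was not tested.

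The next question was whether the subunits differed from each other. Their median log2 fold changes were -0.03 for the large and -0.03 for the small subunit, against 0.00 over all features, and 30 of 47 large and 23 of 31 small subunit genes had an estimate below 0, against 50.2% of all features. PLDP mouse 17 was highest in 32 large and 22 small subunit genes, and PLDP mouse 22 lowest in 34 and 22. The ratio of large to small subunit counts was 1.349, 1.353 and 1.352 in control mice 2, 5 and 10 and 1.360, 1.379 and 1.370 in PLDP mice 17, 22 and 26, so that the PLDP mice lay above the control mice by a small step. When the counts of named pseudogenes were added to those of their genes, which was tried after the data had been seen, the ratio was 1.478, 1.479 and 1.480 in control mice and 1.474, 1.509 and 1.495 in PLDP mice. PLDP mouse 17 then lay below the control mice. No test was made on these summed values.

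Genes with a special place in the ribosome were also looked at. The stalk that recruits translation factors is made of Rplp0, Rplp1 and Rplp2, and none of the 3 was called. Rplp0, its base, had 183, 175 and 177 CPM in control mice 2, 5 and 10 and 192, 162 and 171 CPM in PLDP mice 17, 22 and 26 (log2 fold change -0.03, SE 0.05, unadjusted p = 0.580, adjusted p = 0.923). Rplp1 had 394, 405 and 408 CPM in control mice 2, 5 and 10 and 429, 371 and 392 CPM in PLDP mice 17, 22 and 26 (log2 fold change -0.02, 95% interval -0.12 to 0.08). Rplp2 had 123, 118 and 126 CPM in control mice 2, 5 and 10 and 132, 117 and 124 CPM in PLDP mice 17, 22 and 26 (log2 fold change 0.02, 95% interval -0.08 to 0.13). In all 3, PLDP mouse 17 was the highest and PLDP mouse 22 the lowest mouse.

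Rpl5 and Rpl11 bind the 5S ribosomal RNA and, when ribosome assembly stalls, restrain Mdm2, the ligase that degrades p53. Rpl5 had 240.1, 253 and 236 CPM in control mice 2, 5 and 10 and 245, 220.5 and 229 CPM in PLDP mice 17, 22 and 26 (log2 fold change -0.07, SE 0.05, unadjusted p = 0.139, adjusted p = 0.703). Rpl11 had 219.9, 241 and 228 CPM in control mice 2, 5 and 10 and 244, 219 and 226 CPM in PLDP mice 17, 22 and 26 (log2 fold change 0.00, 95% interval -0.10 to 0.10). The groups overlapped in both genes. Of 10 genes mutated in Diamond-Blackfan anemia, an inherited failure of red cell formation, 9 were tested, and Rps7 was the only one called, as a lower gene, beside 3.69% of all features called lower.

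Several ribosomal proteins have a paralog, and some of these paralogs have a narrower range of tissues. Rpl22l1 stood at 50.4% ± 3.48 (SD, n = 3) of the level of Rpl22 per length in control mice and at 47.2% ± 2.36 (SD, n = 3) in PLDP mice, with overlapping groups. Rpl22 itself had 107, 96.1 and 96.6 CPM in control mice 2, 5 and 10 and 105, 95.0 and 91.2 CPM in PLDP mice 17, 22 and 26 (log2 fold change -0.04, SE 0.06, unadjusted p = 0.452, adjusted p = 0.884). Rpl7l1, a nucleolar relative of Rpl7, stood at 18.7% ± 0.398 (SD, n = 3) of Rpl7 per length in control mice and 19.0% ± 0.694 (SD, n = 3) in PLDP mice. Rps27l, a p53 target, stood at 5.80% ± 0.346 (SD, n = 3) and 5.43% ± 0.199 (SD, n = 3) of Rps27. Both ratios overlapped between the diets. The partner genes Rpl7, Rps27, Rpl3, Rpl10, Rpl39 and Rps4x had log2 fold changes of -0.07, 0.02, 0.01, -0.07, -0.07 and -0.05, and none was called. Rpl36a, which has the left-out Rpl36al as its paralog, had 70.7, 78.4 and 72.7 CPM in control mice 2, 5 and 10 and 80.2, 67.7 and 74.7 CPM in PLDP mice 17, 22 and 26 (log2 fold change 0.00, 95% interval -0.13 to 0.13).

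The paralogs known from testis and striated muscle were near or below detection. Rpl10l, a retrogene of spermatocytes, had 0 reads in all 6 mice, which allows at most 0.125 to 0.160 CPM per library at a limit of 3 counts. Rpl39l, also of male germ cells, had 2 reads in all, 1 each in control mice 2 and 5. Rpl3l, the Rpl3 paralog of heart and skeletal muscle, had 3 to 14 reads per mouse, which corresponds to 0.160 to 0.673 CPM, and at most 0.154% of Rpl3 per length. These limits cover counting error only. Rps4l, annotated as a pseudogene and therefore outside the 82, had 20.2, 24.2 and 21.4 CPM in control mice 2, 5 and 10 and 23.9, 17.5 and 18.9 CPM in PLDP mice 17, 22 and 26 (log2 fold change -0.13, SE 0.10, unadjusted p = 0.229, adjusted p = 0.773).

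Many of these genes have processed pseudogenes, intronless copies elsewhere in the genome, and reads from the gene and from a near-identical copy cannot always be told apart. Of the 82 genes, 59 had at least 1 named pseudogene among the features and 291 such pseudogenes were counted, together 0.251% to 0.285% of all counts per mouse. For the median gene, 41.4% of the 100-base stretches of its transcript occur in transcripts of other genes. Of the 78 tested genes, those with the widest range between mice, apart from the low Rpl24, were Rpl17, Rpl7a, Rps27a and Rpl30, each with a single mouse above the others.

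The similarity is shown for Rps27a and Rpl7a, since a read must cover a differing base to tell the copies apart. Positions are counted from 1 at the A of the start codon, and capitals mark the base that differs. The stretches lie in coding exons of Rps27a (chromosome 11) and Rpl7a (chr2:26910764-26913318, plus strand, GRCm38). Rps27a-ps2 lies at chr9:83409660-83410126 on the plus strand and Rpl7a-ps11 at chrX:166854211-166855011 on the plus strand.
Rps27a, coding bases 345 to 404: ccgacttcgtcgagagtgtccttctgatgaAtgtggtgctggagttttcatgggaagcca
Rps27a-ps2, matching bases: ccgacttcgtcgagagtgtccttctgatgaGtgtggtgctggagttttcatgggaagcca
Rpl7a, coding bases 156 to 215: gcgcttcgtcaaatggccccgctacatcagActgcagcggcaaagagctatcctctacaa
Rpl7a-ps11, matching bases: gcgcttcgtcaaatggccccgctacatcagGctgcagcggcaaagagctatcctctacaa
Over 467 aligned of 471 coding bases, Rps27a and Rps27a-ps2 differ by 1 base (A375G, the gene's base first). Over all 801 coding bases, Rpl7a and Rpl7a-ps11 differ by 2 bases, of which A186G is in the stretch shown.

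In Rps27a, the high value of control mouse 2 went with a low value of the pseudogene. Rps27a-ps2 had 73.2, 102 and 99.0 CPM in control mice 2, 5 and 10 and 101, 86.9 and 102 CPM in PLDP mice 17, 22 and 26, lowest in control mouse 2, where Rps27a was highest. Gene and pseudogenes together had 196, 202 and 201 CPM in control mice 2, 5 and 10 and 208, 177 and 187 CPM in PLDP mice 17, 22 and 26. Summed in this way the 6 mice lay closer together and the diet difference was no longer called (log2 fold change -0.07, SE 0.05, unadjusted p = 0.195, adjusted p = 0.751). Such a sum shrinks a diet difference in any case where the pseudogene does not share it (Rps27a-ps2, log2 fold change 0.07). The loss of the call therefore cannot tell how reads were assigned.

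Rpl17, a large subunit protein that lines the peptide tunnel, had the highest estimate of all 78 genes, with 71.1, 88.7 and 79.2 CPM in control mice 2, 5 and 10 and 133, 72.7 and 79.0 CPM in PLDP mice 17, 22 and 26 (log2 fold change 0.25, SE 0.15, unadjusted p = 0.113, adjusted p = 0.675). PLDP mouse 17 alone was high. Its pseudogenes did not move alike. Rpl17-ps10 had 139, 127 and 129.8 CPM in control mice 2, 5 and 10 and 92.2, 119.5 and 125 CPM in PLDP mice 17, 22 and 26. In Rpl17-ps8 and Rpl17-ps5, too, PLDP mouse 17 was the lowest mouse, at 86.9 and 94.5 CPM. In Rpl17-ps9 and Rpl17-ps3 it was the highest, at 77.8 CPM against 71.7 to 77.0 and 91.8 CPM against 75.7 to 87.9 in the other mice. With its 11 named pseudogenes added, Rpl17 had 574, 606 and 592 CPM in control mice 2, 5 and 10 and 576, 551 and 570.1 CPM in PLDP mice 17, 22 and 26. The excess of PLDP mouse 17 was then gone and the estimate lay on the other side of 0 (log2 fold change -0.06, SE 0.04, unadjusted p = 0.111).

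Rpl7a and Rpl30, both large subunit proteins, each had their highest value in a control mouse. Rpl7a had 109, 80.8 and 72.4 CPM in control mice 2, 5 and 10 and 82.9, 87.8 and 71.2 CPM in PLDP mice 17, 22 and 26. Its pseudogene Rpl7a-ps5 had 11.1 CPM in control mouse 2 and 17.4 to 21.9 CPM in the other mice. The more abundant Rpl7a-ps11 had 101, 124 and 115 CPM in control mice 2, 5 and 10 and 113, 99.4 and 109.6 CPM in PLDP mice 17, 22 and 26, lowest in PLDP mouse 22 and next lowest in control mouse 2. Rpl7a-ps3 was lowest in PLDP mouse 26, at 7.86 CPM, and had 8.71 CPM in control mouse 2. Rpl30 had 97.1, 129.6 and 108 CPM in control mice 2, 5 and 10 and 113, 94.9 and 102 CPM in PLDP mice 17, 22 and 26. In control mouse 5, its highest, Rpl30-ps8 had 7.62 CPM, against 13.4 to 17.0 CPM in the other mice, and Rpl30-ps10, Rpl30-ps9 and Rpl30-ps1 were lowest there as well. With the pseudogenes added, the highest mouse exceeded the lowest 1.14-fold for Rpl7a and 1.18-fold for Rpl30, against 1.53-fold and 1.37-fold for the genes alone. Adding counts of other features can lower such a ratio whether or not reads were exchanged between them, so the drop cannot decide this. Whether the opposite values of genes and pseudogenes, where they occur, reflect the assignment of reads or the mice themselves was not tested.

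**Figure D5:**
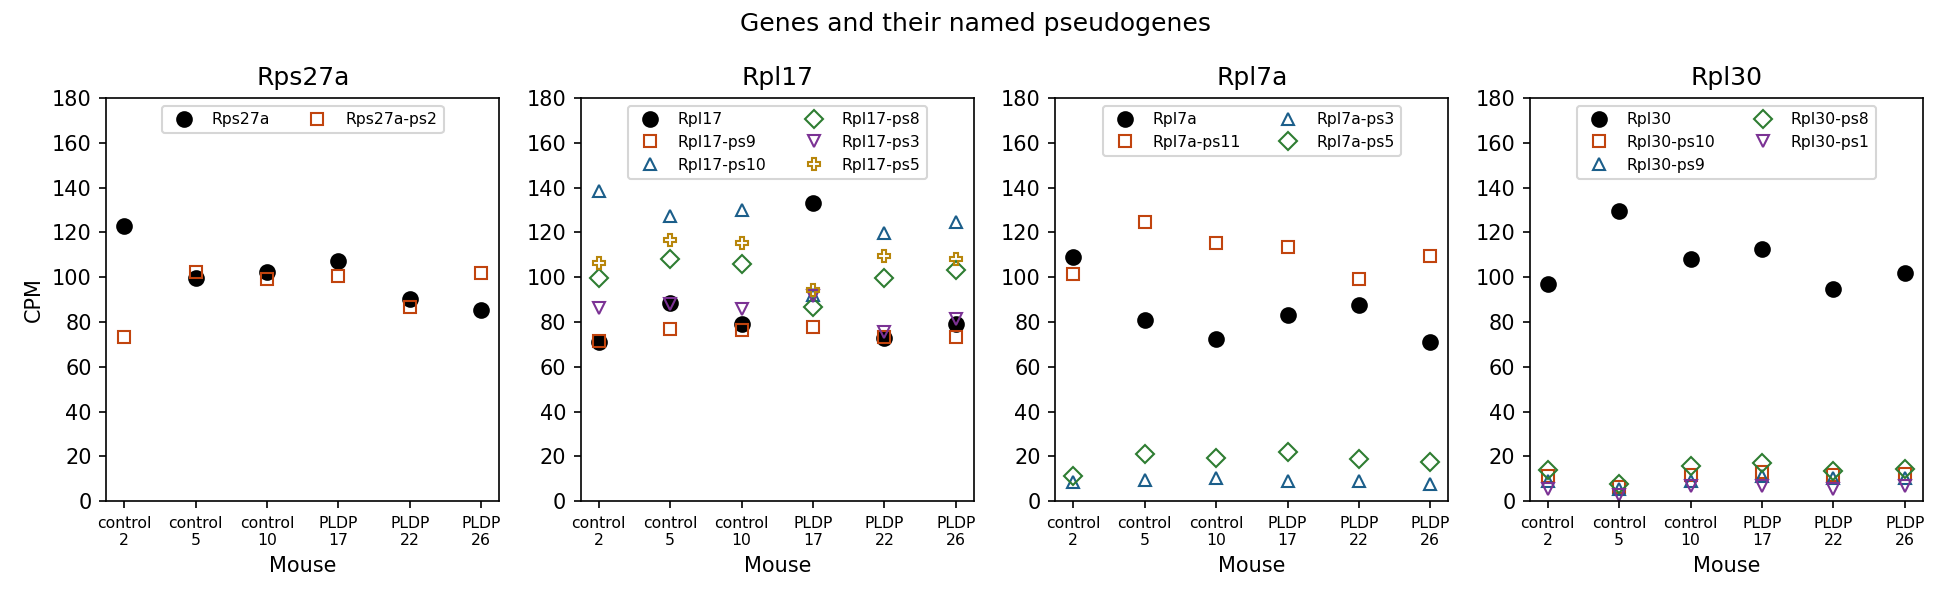
Level in CPM of Rps27a, Rpl17, Rpl7a and Rpl30 (black dots) and of their named pseudogenes with at least 600 counts over the 6 mice (open symbols) in each mouse. In the mouse where the gene is highest, Rps27a-ps2 (control mouse 2), Rpl7a-ps5 (control mouse 2), all 4 Rpl30 pseudogenes (control mouse 5) and Rpl17-ps10, Rpl17-ps8 and Rpl17-ps5 (PLDP mouse 17) are at their lowest, whereas Rpl17-ps9 and Rpl17-ps3 are at their highest there and Rpl7a-ps11 and Rpl7a-ps3 are lowest in other mice.

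The other genes of the same machinery were counted from lists of known members. Of 4 listed ribosomal genes outside the name rule, 3 were tested and none was called. Fau and Rack1, among these, had log2 fold changes of 0.01 and -0.06. Rpl36al, at 1 to 8 reads per mouse, had too few counts for the test. Rack1, a scaffold on the small subunit, was lowest in PLDP mouse 22 at 141 CPM, against 153 to 159.8 CPM in the other mice. Among 16 translation factors and related genes with a terminal oligopyrimidine tract, 1 was higher and 1 lower, beside 4.91% and 3.69% of all features; with a list of this size these counts are near the background. Hnrnpa1, an RNA-binding protein, rose from 240.1 ± 5.04 CPM (SD, n = 3) to 259 ± 6.94 CPM (SD, n = 3). Npm1, a nucleolar chaperone of ribosome assembly, fell from 153 ± 3.93 CPM (SD, n = 3) to 137 ± 2.39 CPM (SD, n = 3). For neither did the groups overlap, but both missed the threshold after adjustment (Hnrnpa1 log2 fold change 0.11, adjusted p = 0.421; Npm1 -0.16, adjusted p = 0.248).

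Among 25 genes of the mTORC1 pathway, 2 were higher and 2 lower, where 4.91% and 3.69% of all features were. Larp1, the protein that binds terminal oligopyrimidine tracts, rose (log2 fold change 0.13, SE 0.04, unadjusted p = 0.00392, adjusted p = 0.319). Its levels were 145, 149 and 149.9 CPM in control mice 2, 5 and 10 and 159.5, 165 and 163 CPM in PLDP mice 17, 22 and 26, without overlap between the groups. Ddit4, an inhibitor of mTORC1, fell (log2 fold change -0.18, SE 0.06, unadjusted p = 0.00414, adjusted p = 0.321), as did Rragb, a Rag GTPase that signals amino acid supply to mTORC1 (log2 fold change -0.15, SE 0.05, unadjusted p = 0.00919, adjusted p = 0.402). The fourth called gene was Eif4ebp1, a translation repressor and mTORC1 target, which rose from a low level (log2 fold change 0.53, SE 0.22, unadjusted p = 0.0290, adjusted p = 0.515). Among 59 tested ribosome biogenesis genes, 2 were higher (Heatr1 and Nop58, both nucleolar factors of pre-ribosome processing) and 1 was lower (Npm1), shares below the 4.91% and 3.69% of all features, with a median log2 fold change of 0.03.

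Mitochondrial ribosomal protein genes, which serve translation inside mitochondria, gave 1 higher gene (Mrps16) and none lower of 75 tested, again below the shares over all features, with a median log2 fold change of 0.00. Their median deviations in PLDP mice 17, 22 and 26 were 0.08, -0.04 and -0.02. Among 49 tested nuclear genes of oxidative phosphorylation, Ndufa12 was higher and Ndufb4 and Ndufb3 were lower, all subunits of complex I, near or below those shares, and the median deviations were 0.09, -0.10 and -0.04. The 16 translation factors and related genes stood at 0.03, -0.04 and -0.01. All 3 sets thus had PLDP mouse 17 above and PLDP mice 22 and 26 below the control mean, as the ribosomal protein genes did. The ribosome biogenesis genes, at 0.04, 0.01 and 0.04, and the mTORC1 pathway genes, at -0.05, 0.03 and -0.01, did not have this order.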

How the data were processed

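Whole-brain RNA-seq was taken from 3 control and 3 PLDP mice. The authors deposited raw whole-number counts per feature, 1 file per mouse, without normalization. The submitters' processing notes name cutadapt 2.9, HISAT2 2.2.0, featureCounts 2.6.0 and DESeq2 1.6.3 and the builds GRCh38 and GRCm38, with no role or order. How reads with several alignments and reads over overlapping genes were counted is not given in the sources used here.

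Of 60354 features, 54694 matched GENCODE M21 (GRCm38). The counts were fitted over all features with edgeR 4.0.16 (R 4.3.3; TMM scaling, quasi-likelihood test, diet as the only term), after filterByExpr (min.count 10, min.total.count 15) had left 18580. The threshold for a call was an unadjusted p of 0.05, with Benjamini-Hochberg adjustment over all features given beside it. CPM are TMM-scaled. Intervals are 95%. The fit was tested on simulated data. Values were recomputed with other scalings and filters, DESeq2 1.42.0, limma voom 3.58.1, an edgeR likelihood ratio test, pseudogenes added, a length offset and each mouse left out.

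Text names genes that passed the test, the 3 highest and 3 lowest of each subunit per length, paralogs and partners, stalk and 5S-binding genes, and up to 3 called genes of each other list; others, such as Rpl8, Rpsa, Rpl27, Rps28, Rps10, Rpl7a, Rpl30 and Rpl21, were chosen after their values were seen. A few genes are not reported here by name and are not drawn where a plot labels single genes. The members and lists were chosen with earlier results of these data known. Each mouse has its own number in the labels, so p-values measure the spread between animals. The precision is limited by 3 mice per diet and by 18797061 to 23938729 counts per mouse.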

Additional observations from a re-analysis of the deposited data

How the results depend on the processing

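Rps7, Rps14 and Rpl22l1 stayed past the threshold with all 6 mice under every other scaling, filter and test tried, with pseudogenes added and with the length offset, but not when single mice were left out: Rps7 lost its call in 2 of those 6 cases, Rps14, Rpl22l1 and Rpl18 in 4 each and Rps27a in 3. Rpl18 missed it with DESeq2 (unadjusted p = 0.055), the likelihood ratio test (unadjusted p = 0.053), upper-quartile factors (unadjusted p = 0.063) and pseudogenes added (unadjusted p = 0.056), and Rps27a with DESeq2 (unadjusted p = 0.151) and pseudogenes added (unadjusted p = 0.195). No gene was called higher by edgeR's quasi-likelihood test with all 6 mice, by DESeq2 or by limma voom; without a count filter, 3 were higher and 10 lower (3.64% and 2.9% of all features), and Rps27a (adjusted p = 0.0174) and Rpl17 (higher, adjusted p = 0.000921) passed after adjustment, as did 0.499% of all features. The number called lower was 3 with DESeq2 (1.95% of all features), 3 with pseudogenes added (3.72%) and 11 with the length offset (4.55%). Leaving out 1 mouse gave 1 to 37 genes lower and 0 to 4 higher. The median log2 fold change over all members then ran from -0.085 (without PLDP mouse 17) to 0.011 (without PLDP mouse 22), for the large subunit from -0.073 to 0.0082 and for the small subunit from -0.098 to 0.011, and the PLDP minus control share of counts from -0.076 to 0.0133 percentage points. The causes were not tested. No paired analysis was possible because the diets share no mouse numbers. With 3 mice per diet and 95% intervals of typically 0.11 to either side on the log2 scale, smaller differences could not be told from 0.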
